A study of Mus musculus with 6 samples.

Results

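The insulin-like growth factor (IGF) system of isolated mouse Sertoli cells was followed through 9 of the 28262 genes in the count table, taken by gene name: the ligand *Igf1*, the receptors *Igf1r* and *Insr*, and the binding proteins *Igfbp2*, *Igfbp3*, *Igfbp4*, *Igfbp5*, *Igfbp6* and *Igfbp7*. All 9 were found and all 9 passed the filter on low counts, with 115 or more reads in every library. The cells came from testes of 20-day-old C57BL/6 mice and were sequenced as 3 *Pa1* F/F libraries, which carry floxed *Pa1* alleles and served as the control, and 3 *Amh-pa1* -/- libraries, in which a Cre recombinase under the *Amh* promoter deletes the floxed exons in Sertoli cells. No drug or hormone treatment separated the groups, but the isolated cells of both were plated in a medium that held insulin, EGF and transferrin. The study's methods speak of biological replicates but do not say how many mice went into a library, and p-values measure the spread between these libraries.

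IGF1 and IGF2 are secreted growth factors that signal through the IGF1 receptor, a tyrosine kinase closely related to the insulin receptor, with which it can form hybrids. IGF binding proteins hold the ligands outside the cell, where they prolong their life and limit or deliver them to the receptor, and proteases release the ligands again. In the testis, Sertoli cells both make and respond to IGF1, and signalling through the insulin and IGF1 receptors is needed for Sertoli cells to reach their normal number and for FSH to act on their proliferation.

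The libraries held between 13203757 and 16231443 reads on genes. Replicates 1 and 3 of *Pa1* F/F lay close to each other (chi-square per degree of freedom 2.24), as did *Amh-pa1* -/- replicates 1 and 2 (1.68), while every pair with *Pa1* F/F replicate 2 or *Amh-pa1* -/- replicate 3 had a value of 18.7 or more. Values of the members are therefore also given without these 2 libraries where they changed a call. Leaving out libraries because they lie far from the others narrows the spread. In that setting 55.3% of all tested genes were called, so its p-values are given no weight. The reads of *Pa1* were not analysed here, and genotypes are taken as labelled. Of 14 Sertoli cell markers 12 were tested, of which 5 were lower (*Sox8*, *Inha*, *Gata4*, *Clu* and *Aard*, with log2 fold changes from -1.85 to -0.27), 1 was higher (*Dmrt1*, 0.64) and 6 did not pass, beside 17.1% of all tested genes called lower and 18.2% higher. *Clu* was the most abundant, *Sox9*, which did not pass, had a mean of 4654 normalized counts in *Pa1* F/F and 4287 in *Amh-pa1* -/- cells, and *Trf*, which codes for transferrin, was near the floor of 3 reads in both (2.88 and 4.06 normalized counts). A normalized count here is the number of reads scaled by the depth of its library and its TMM (trimmed mean of M-values) factor to the average library.

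The IGF system moved in both directions. At an adjusted p under 0.05 in edgeR's quasi-likelihood test, 5 members fell in *Amh-pa1* -/- cells (*Igfbp4*, *Igfbp5*, *Igfbp2*, *Igfbp7* and *Insr*), 2 rose (*Igfbp6* and *Igf1r*), and *Igf1* and *Igfbp3* did not pass. In bulk RNA, fewer cells of a type and less RNA per cell cannot be told apart. By the same rule 35.3% of all 14919 tested genes were called, 17.1% as lower and 18.2% as higher. When a log2 fold change of 1 or more was also required, which is the threshold of the study, *Igfbp4*, *Igfbp5*, *Igfbp2* and *Igfbp7* remained as lower genes and *Igfbp6* as a higher gene, against 12.0% of all tested genes (6.56% lower and 5.44% higher). The median log2 fold change was -0.34 over the 9 members and 0.00 over all tested genes. The normalized counts of the genotypes did not overlap for 8 of the 9 members, as compared with 52.4% of all tested genes. For each of these 8 an exact two-sided permutation test gave p = 0.1, the smallest value that 3 libraries against 3 allow.

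**Figure D1:**
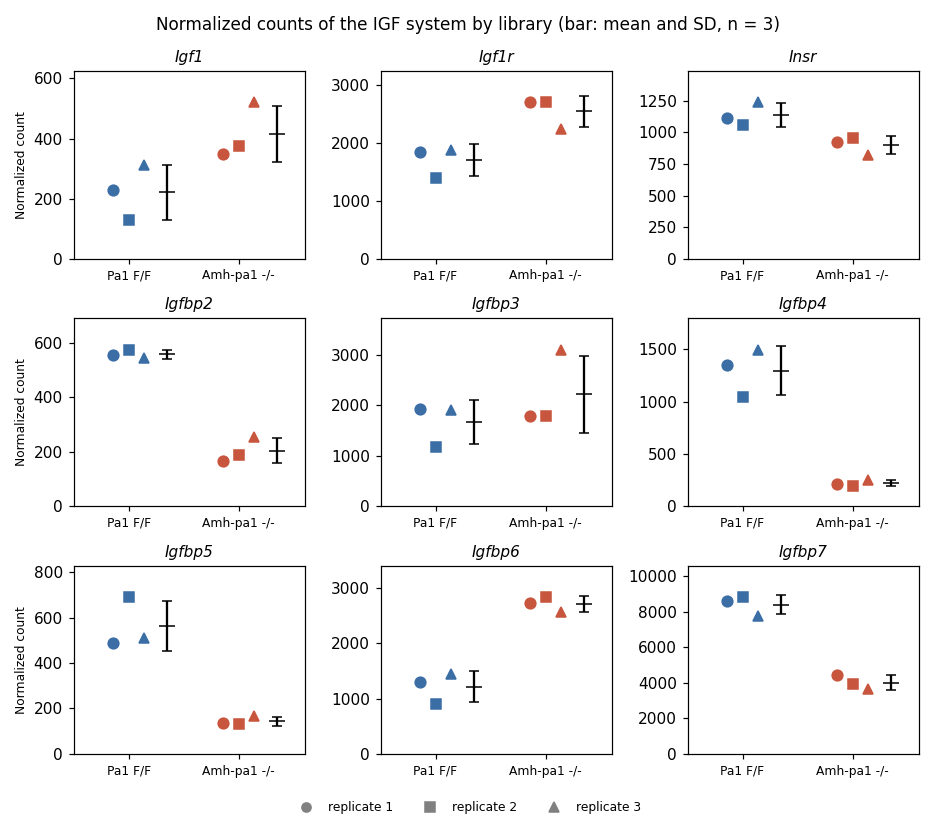
Normalized counts of the 9 members in each library. Each panel is 1 gene with a y axis from 0, blue symbols are *Pa1* F/F and red symbols *Amh-pa1* -/- libraries, the symbol shape gives the replicate number, and the black bar is the mean with its SD (n = 3). All 3 *Amh-pa1* -/- libraries lie below the *Pa1* F/F libraries for *Igfbp2*, *Igfbp4*, *Igfbp5*, *Igfbp7* and *Insr*, and above them for *Igf1*, *Igf1r* and *Igfbp6*, while the genotypes overlap for *Igfbp3*.

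*Igf1*, the ligand (ENSMUSG00000020053, GRCm38 chromosome 10, from 87858265 to 87937042), gave normalized counts of 227, 128 and 310.4 (*Pa1* F/F libraries, in order of replicate) and of 348, 374 and 521 (*Amh-pa1* -/- libraries). Every *Amh-pa1* -/- library was above every *Pa1* F/F library, but both genotypes were widely spread, with *Pa1* F/F replicate 2 the lowest and *Amh-pa1* -/- replicate 3 the highest of all. The means were 222 ± 91.4 and 415 ± 93.1 (SD, n = 3 each), and the log2 fold change of 0.90 (standard error 0.32, 95% interval from 0.15 to 1.66) did not pass the threshold (edgeR, adjusted p = 0.0658). The call turned on the setting. It passed without a filter on low counts (adjusted p = 0.0257), with DESeq2's Wald test (adjusted p = 0.0158), with limma-voom (adjusted p = 0.0453), with the replicate number as a block (adjusted p = 0.0323) and without *Pa1* F/F replicate 3 (log2 fold change 1.22, adjusted p = 0.0387 with edgeR), and over the alternatives its adjusted p lay between 0.00323 and 0.151. Without both libraries that stood apart, the log2 fold change was smaller, 0.43 (edgeR, adjusted p = 0.00323). That setting gave the lowest adjusted p of the range, which is given no weight because the choice of libraries narrowed the spread.

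*Igf1r*, the receptor for IGF1 and IGF2 (ENSMUSG00000005533, chromosome 7, from 67952827 to 68233668), gave normalized counts of 1849, 1387 and 1871 (*Pa1* F/F libraries) and of 2701, 2701 and 2239 (*Amh-pa1* -/- libraries). All *Amh-pa1* -/- libraries were higher, and the libraries that stood apart were the lowest of their genotype. It rose from 1702 ± 273 to 2547 ± 267 (SD, n = 3 each), with log2 fold change 0.58 ± 0.13 (standard error, edgeR, adjusted p = 0.0155). Without *Amh-pa1* -/- replicate 1 its adjusted p was 0.0537, with the close replicate pairs summed it was 0.103, and over all alternatives it lay between 7.38e-11 and 0.103. The lowest of these came without both libraries that stood apart and is given no weight.

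*Insr*, the insulin receptor (ENSMUSG00000005534, chromosome 8, from 3122061 to 3279617), went the other way. Its normalized counts were 1115, 1056 and 1239 (*Pa1* F/F libraries) and 921, 953 and 821 (*Amh-pa1* -/- libraries), so that the genotypes did not overlap but lay close together. It fell from 1137 ± 93.0 to 898 ± 69.2 (SD, n = 3 each), with log2 fold change -0.34 ± 0.09 (standard error, edgeR, adjusted p = 0.0239). The call was lost without *Pa1* F/F replicate 1 (adjusted p = 0.0720), without *Pa1* F/F replicate 3 (adjusted p = 0.0811) and without *Amh-pa1* -/- replicate 1 (adjusted p = 0.0638), all with edgeR, and with the replicate number as a block (adjusted p = 0.0782), and its adjusted p over the alternatives lay between 5.84e-05 and 0.147. The lowest of these adjusted p-values came without both libraries that stood apart and is given no weight. The log2 fold change stayed between -0.39 and -0.27.

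With the level of each gene taken per kilobase of exon (CPM, which scales reads to a common library total, per kilobase), *Igf1r* stood at 1.15, 0.915 and 1.05 times *Insr* in the *Pa1* F/F libraries, in order of replicate, and at 2.04, 1.98 and 1.90 times *Insr* in the *Amh-pa1* -/- libraries. The *Pa1* F/F libraries thus held the receptor transcripts at nearly the same level, and each *Amh-pa1* -/- library held more *Igf1r* than *Insr*.

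*Igfbp4*, which codes for a binding protein that is cleaved by pregnancy-associated plasma protein A, changed most (ENSMUSG00000017493, chromosome 11, from 99041244 to 99054392). It gave normalized counts of 1348, 1043 and 1499 (*Pa1* F/F libraries) and of 214, 195 and 249 (*Amh-pa1* -/- libraries). The lowest *Pa1* F/F library was far above the highest *Amh-pa1* -/- library. The means were 1297 ± 232 and 219 ± 27.7 (SD, n = 3 each), the log2 fold change was -2.56 (standard error 0.16, edgeR, adjusted p = 0.000158), and the level was 5.90-fold lower. Of 11717 other tested genes that averaged 50 normalized counts or more, those whose profile over the 6 libraries lay nearest to that of *Igfbp4* were *Tmem114*, *Cldn7* and *Serpina3n*, with a root mean square difference of 0.11, 0.16 and 0.17 in centred log2 CPM.

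*Igfbp5* and *Igfbp2* are neighbours on chromosome 1, tail to tail, with 5457 bases and no listed gene between them. *Igfbp5*, whose protein binds extracellular matrix as well as IGFs (ENSMUSG00000026185, from 72857932 to 72874884), gave normalized counts of 488, 690.4 and 512 (*Pa1* F/F libraries) and of 135, 129.6 and 166 (*Amh-pa1* -/- libraries). It fell from 564 ± 110.5 to 144 ± 19.9 (SD, n = 3 each), with log2 fold change -1.97 ± 0.17 (standard error, edgeR, adjusted p = 0.000487). *Igfbp2* (ENSMUSG00000039323, from 72824503 to 72852474) gave normalized counts of 554, 575 and 543 (*Pa1* F/F libraries) and of 167, 188 and 256 (*Amh-pa1* -/- libraries). It fell from 557 ± 16.2 to 204 ± 46.3 (SD, n = 3 each), with log2 fold change -1.45 ± 0.16 (standard error, edgeR, adjusted p = 0.00103). For both genes *Pa1* F/F replicate 2 was the highest library of its genotype and *Amh-pa1* -/- replicate 3 the highest of the other. Of the 36 pairs of members, these neighbours had the smallest root mean square difference of centred log2 CPM over the 6 libraries (0.290), but *Igf1* and *Igfbp6*, on different chromosomes, came next with nearly the same value (0.296).

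*Igfbp7*, the most abundant binding protein transcript of the control cells, codes for a secreted protein with low affinity for IGFs (ENSMUSG00000036256, chromosome 5, from 77349240 to 77408041). It gave normalized counts of 8625, 8832 and 7784 (*Pa1* F/F libraries) and of 4469, 3937 and 3629 (*Amh-pa1* -/- libraries), with no overlap. It fell from 8414 ± 555 to 4012 ± 425 (SD, n = 3 each), with log2 fold change -1.07 ± 0.09 (standard error, edgeR, adjusted p = 0.000493). The fold lay just past the threshold of the study, without *Amh-pa1* -/- replicate 3 the log2 fold change was just short of it, and without both libraries that stood apart it was -0.97. The gene overlaps *Polr2b* on the other strand by 85 bases, and reads could be shared there if the counting did not use strand. *Polr2b* had between 1491 and 1599 normalized counts in every library, with a log2 fold change of 0.07 (edgeR, adjusted p = 0.269).

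*Igfbp6*, whose protein prefers IGF2 over IGF1, was the member that rose past both thresholds (ENSMUSG00000023046, chromosome 15, from 102144362 to 102149511). Its normalized counts were 1301, 897 and 1438 (*Pa1* F/F libraries) and 2736, 2836 and 2563 (*Amh-pa1* -/- libraries). The *Amh-pa1* -/- libraries were close together, and *Pa1* F/F replicate 2 stood below the others of its genotype. The means were 1212 ± 282 and 2712 ± 138 (SD, n = 3 each), and the log2 fold change 1.16 ± 0.16 (standard error, edgeR, adjusted p = 0.00260). Without *Pa1* F/F replicate 2 the log2 fold change was 0.98, short of 1 (edgeR, adjusted p = 0.00113).

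*Igfbp3*, which codes for the main IGF carrier of blood (ENSMUSG00000020427, chromosome 11, from 7206086 to 7213923), gave normalized counts of 1935, 1166 and 1916 (*Pa1* F/F libraries) and of 1782, 1784 and 3105 (*Amh-pa1* -/- libraries). The genotypes overlapped, and the libraries that stood apart held the lowest and the highest value. The means were 1672 ± 439 and 2224 ± 763 (SD, n = 3 each), and the log2 fold change of 0.41 (95% interval from -0.25 to 1.07) did not pass the threshold (edgeR, adjusted p = 0.290, exact permutation p = 0.6). Without both of these libraries it was -0.11, so that even its direction rested on them. The adjusted p of that setting (edgeR, 0.0337) is given no weight.

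**Figure D2:**
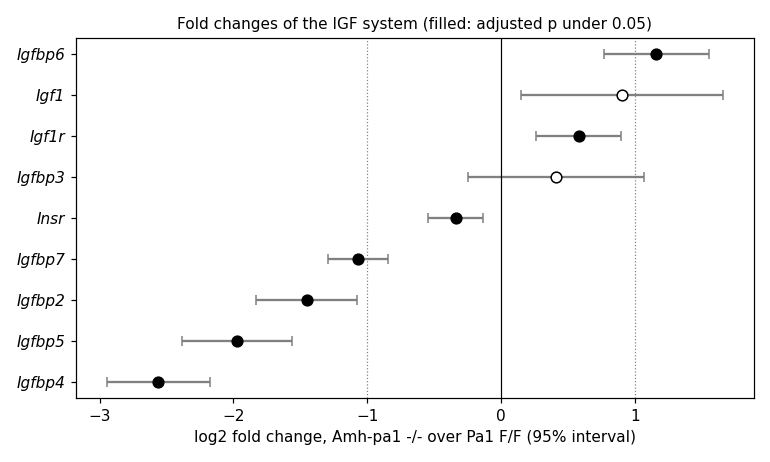
Log2 fold change of each member in *Amh-pa1* -/- over *Pa1* F/F cells with its 95% interval from edgeR. Filled points passed an adjusted p under 0.05, the solid line marks no change and the dotted lines a log2 fold change of 1 in each direction. The order runs from *Igfbp4* at -2.56 to *Igfbp6* at 1.16.

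Per kilobase of exon, the control cells held *Igfbp7* at 105 ± 6.93 CPM per kilobase, *Igfbp6* at 59.7 ± 13.9, *Igfbp3* at 31.9 ± 8.37, *Igfbp4* at 19.9 ± 3.57, *Igfbp2* at 18.2 ± 0.531 and *Igfbp5* at 6.38 ± 1.25 (SD, n = 3). The libraries of *Igfbp3* overlapped with those of *Igfbp4*, and these with *Igfbp2*, and so did *Igfbp5* with *Igf1r* (5.86 ± 0.939) and *Insr* (5.61 ± 0.459), while *Igf1* was lowest (1.47 ± 0.608). The order of genes rests on the length used. *Igf1r* and *Insr* have 19768 and 13776 bases of exon but canonical transcripts of 12466 and 9385 bases, while *Igfbp5* has 6006 by both. In *Amh-pa1* -/- cells *Igfbp6* came first at 134 ± 6.79 CPM per kilobase, followed by *Igfbp7* at 50.1 ± 5.30 and *Igfbp3* at 42.4 ± 14.6, which overlapped. The next were *Igf1r* (8.76 ± 0.917), *Igfbp2* (6.66 ± 1.51), *Insr* (4.43 ± 0.341), *Igfbp4* (3.37 ± 0.426) and *Igf1* (2.75 ± 0.619), of which *Igf1r* overlapped with *Igfbp2* and *Igfbp4* with *Igf1*, and *Igfbp5* came last (1.63 ± 0.225).

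The summed level of the 6 binding protein transcripts overlapped between the genotypes while its make-up differed. It came to 253, 219 and 251 CPM per kilobase (*Pa1* F/F libraries) and to 235, 234 and 245 (*Amh-pa1* -/- libraries). *Igfbp7* made up 42.5%, 50.3% and 38.7% of it in the *Pa1* F/F libraries, and 23.7%, 21.0% and 18.5% in the *Amh-pa1* -/- libraries. *Igfbp6* made up 25.3%, 20.1% and 28.2% in the *Pa1* F/F libraries, and 57.4%, 59.8% and 51.6% in the *Amh-pa1* -/- libraries. *Igfbp2*, *Igfbp4*, *Igfbp5* and *Igfbp7* together summed to 150 ± 5.04 CPM per kilobase in *Pa1* F/F cells and 61.7 ± 3.75 in *Amh-pa1* -/- cells (SD, n = 3 each). These sums follow from the members above and were not tested. With the length of the canonical transcript in place of all exons, *Igfbp6* made up 24.4% and 55.3% of the sum on average, and *Igfbp7* 39.3% and 18.7%. In *Pa1* F/F cells *Igfbp2* then stood above *Igfbp4* (10.5% and 8.32% on average), the reverse of their order by all exons (7.60% and 8.23%).

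**Figure D3:**
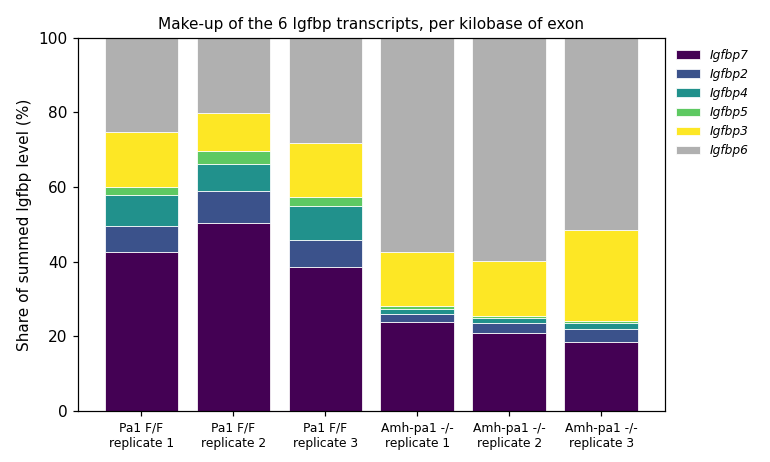
Share of each binding protein transcript in the summed level of the 6 Igfbp genes, in CPM per kilobase of exon, with 1 bar per library and 100% for each. The share of *Igfbp6* (grey, top) is 20.1% to 28.2% in the *Pa1* F/F bars and 51.6% to 59.8% in the *Amh-pa1* -/- bars, and that of *Igfbp7* (dark, bottom) is smaller in each *Amh-pa1* -/- bar than in any *Pa1* F/F bar.

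The promoters of the binding proteins that fell and of the one that rose past both thresholds are shown because the study asked whether PA1 acts with the AP-1 factor JUN at its target genes. RefSeq windows (GRCm38.p6) of 300 bases around the start were matched by symbol for 8 of the 9 members, with 2 starts for *Igfbp2* and no entry for *Insr*. The stretch from 250 to 51 bases before the start is printed 5′ to 3′ in the direction of the gene, with capitals for matches to the motifs named below, and the upstream start was taken for *Igfbp2*.
*Igfbp2* (chr1:72824230-72824429, + strand): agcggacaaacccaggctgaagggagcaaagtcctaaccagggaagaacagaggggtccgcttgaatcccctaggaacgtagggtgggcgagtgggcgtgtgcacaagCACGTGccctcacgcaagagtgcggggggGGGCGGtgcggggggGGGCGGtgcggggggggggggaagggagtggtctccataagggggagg
*Igfbp4* (chr11:99040994-99041193, + strand): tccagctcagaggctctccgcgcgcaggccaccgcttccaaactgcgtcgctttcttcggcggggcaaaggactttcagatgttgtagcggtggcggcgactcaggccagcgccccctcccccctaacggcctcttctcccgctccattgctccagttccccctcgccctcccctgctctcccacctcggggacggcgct
*Igfbp5* (chr1:72874916-72875115, - strand): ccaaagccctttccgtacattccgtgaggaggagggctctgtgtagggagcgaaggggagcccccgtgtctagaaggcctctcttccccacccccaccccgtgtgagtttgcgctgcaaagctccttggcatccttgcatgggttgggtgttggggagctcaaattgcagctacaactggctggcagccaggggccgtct
*Igfbp7* (chr5:77408096-77408295, - strand): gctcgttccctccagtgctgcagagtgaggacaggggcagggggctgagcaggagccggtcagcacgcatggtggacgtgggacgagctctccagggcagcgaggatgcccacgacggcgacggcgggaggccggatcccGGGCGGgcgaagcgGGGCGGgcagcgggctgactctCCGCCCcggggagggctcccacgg
*Igfbp6* (chr15:102143936-102144135, + strand): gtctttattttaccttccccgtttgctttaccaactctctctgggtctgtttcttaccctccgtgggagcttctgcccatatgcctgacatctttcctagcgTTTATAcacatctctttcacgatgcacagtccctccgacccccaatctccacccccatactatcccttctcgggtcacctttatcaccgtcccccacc

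On either strand of the full windows, the AP-1 motif TGANTCA was found in 2 of the 9 windows of members and in 7.81% of all 32851 windows. Both matches lie inside the gene as the count table annotates it, just before a RefSeq start further downstream. One, 39 bases before the downstream start of *Igfbp2*, reads aaacaaaactTGAGTCAgtgaccaccg (chr1:72825338-72825364, + strand). The other, 37 bases before the RefSeq start of *Igf1*, reads agctggaactTGAATCActattctgga (chr10:87861064-87861090, + strand). The windows of *Igfbp4*, *Igfbp5*, *Igfbp6* and *Igfbp7* held no match to these letters. The GC box GGGCGG was found in the windows of *Igfbp2*, *Igfbp7* and *Igf1r* (35.7% of all windows), the E-box CACGTG in that of *Igfbp2* (7.15%), and TATAAA in those of *Igfbp4* and *Igfbp6* (13.6%). The CRE TGACGTCA (1.79% of all windows) and the FOXO motif TGTTTAC (3.65%) were found in none of them. In the printed stretch, GC content ran from 61.0% to 74.5% for the 4 binding proteins that fell and was 51.5% for *Igfbp6*, where the median of all windows was 51.5%.

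Of 14 further genes of the extracellular system, 12 were in the table and 8 passed the filter on low counts. *Stc2* and *Ide* fell and 5 did not pass (17.1% of all tested genes were called lower). The eighth, *Insrr*, passed the filter only through the *Amh-pa1* -/- libraries, so its call as higher is given no weight. With at least 10 reads required in every library, 0 genes of this list were called higher (18.3% of all tested genes). The count of lower genes was 0 with the close replicate pairs summed (4.22% of all tested genes called lower), 4 without *Amh-pa1* -/- replicate 3 (21.2%) and 5 without both libraries that stood apart (27.3%). *Stc2*, which codes for stanniocalcin 2, an inhibitor of the protease that cleaves IGFBP4, gave normalized counts of 132, 95.9 and 156 (*Pa1* F/F libraries) and of 41.0, 39.4 and 69.1 (*Amh-pa1* -/- libraries) (log2 fold change -1.36, standard error 0.29, edgeR, adjusted p = 0.0114). The protease itself, *Pappa*, had 1247 ± 74.3 and 1095 ± 235 normalized counts (mean ± SD, n = 3) without passing the test (edgeR, adjusted p = 0.354, 95% interval of the log2 fold change from -0.53 to 0.16). *Igf2*, the other ligand, was low in both, with 48.3 ± 14.1 and 42.2 ± 8.67 normalized counts (edgeR, adjusted p = 0.627), and *Igf2r*, the receptor that clears IGF2, had 3447 ± 462 and 2840.2 ± 133 (edgeR, adjusted p = 0.0751). *Ide*, the insulin-degrading enzyme, had a log2 fold change of -0.41 (edgeR, adjusted p = 0.00808). *Insrr*, the insulin receptor-related receptor, had 1, 2 and 0 reads in the *Pa1* F/F libraries and 13, 10 and 14 in the *Amh-pa1* -/- libraries, a ratio of 13.1 with a 95% counting interval from 4.15 to 66.4. *Igfbpl1*, whose protein resembles the binding proteins and which did not pass the filter, had 1, 1 and 0 reads in the *Pa1* F/F libraries and 22, 14 and 9 in the *Amh-pa1* -/- libraries, and is named after its values were seen. Intervals on reads cover counting error only.

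Of 38 intracellular signalling genes 37 were tested, of which 10 fell, 5 rose and 22 did not pass, with a median log2 fold change of -0.05. Over all tested genes 35.3% were called, 17.1% as lower and 18.2% as higher. With the close replicate pairs summed, 3 fell and 1 rose (8.66% of all tested genes called), and 3 rose with the replicate number as a block and without *Pa1* F/F replicate 1, *Pa1* F/F replicate 3 or *Amh-pa1* -/- replicate 1 (11.5% to 12.9% of all tested genes called higher). *Irs2*, an adaptor that links both receptors to phosphoinositide 3-kinase, gave normalized counts of 795, 652 and 732 (*Pa1* F/F libraries) and of 521, 525 and 457 (*Amh-pa1* -/- libraries) (log2 fold change -0.54, edgeR, adjusted p = 0.00739). Its relative *Irs1* had 135 ± 30.4 and 127 ± 18.1 normalized counts (mean ± SD, n = 3) without passing the test (edgeR, adjusted p = 0.742). *Sh2b2*, an adaptor of the insulin receptor, and *Socs2*, a suppressor of growth hormone and IGF1 receptor signalling, fell by more than the fold threshold. *Sh2b2* went from 329 ± 27.8 to 109 ± 23.8 normalized counts (log2 fold change -1.59, edgeR, adjusted p = 0.000952). *Socs2* gave normalized counts of 302, 436 and 272 (*Pa1* F/F libraries) and of 65.4, 50.7 and 180.4 (*Amh-pa1* -/- libraries), with *Amh-pa1* -/- replicate 3 above the others of its genotype (log2 fold change -1.76, edgeR, adjusted p = 0.0260). Among the other genes that fell were *Pik3r1*, *Inppl1*, *Tsc1*, *Rictor*, *Foxo1* and *Foxo3*, with log2 fold changes from -0.79 for *Foxo3* to -0.26 for *Rictor*. Those that rose were *Pik3cb* (0.80), *Akt1* (0.51), *Tsc2* (0.35), *Grb2* (0.21) and *Ptpn1* (0.20), and no signalling gene rose by a log2 fold change of 1.

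FOXO transcription factors are held out of the nucleus while insulin or IGF signalling is active, and 13 of their known targets were examined. All 13 were tested, of which 8 fell, 1 rose (*Sesn3*, log2 fold change 0.37, edgeR, adjusted p = 0.0104) and 4 did not pass. Over all tested genes 17.1% were called lower and 18.2% higher. The median log2 fold change of the targets was -0.59, beside 0.00 over all tested genes. *Fbxo32*, a ubiquitin ligase, was the target past the fold threshold, with normalized counts of 305, 467 and 300.0 (*Pa1* F/F libraries) and of 127, 108 and 78.2 (*Amh-pa1* -/- libraries) (log2 fold change -1.77, standard error 0.25, edgeR, adjusted p = 0.00238). The others that fell were *Txnip*, *Sesn1*, *Pik3ip1*, *Klhl24*, *Trib1*, *Bcl6* and *Gadd45a*, with log2 fold changes from -0.83 for *Txnip* to -0.58 for *Gadd45a*. Without *Amh-pa1* -/- replicate 1 or replicate 2, 5 of the targets were called lower (11.8% and 11.7% of all tested genes), and with the close replicate pairs summed 3 were called lower and 0 higher (4.22% and 4.43% of all tested genes).

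Of 12 genes outside the family whose proteins carry the same N-terminal IGF binding domain, 9 were tested, of which 3 rose, 2 fell and 4 did not pass, beside 35.3% of all tested genes called (17.1% lower and 18.2% higher). *Cyr61* and *Ctgf*, which code for matricellular proteins, rose from 7719 ± 882 and 4439 ± 679 normalized counts to 18790.1 ± 2922 and 6683 ± 1034 (SD, n = 3) (log2 fold changes 1.28 and 0.59, edgeR, adjusted p = 0.000937 and 0.0212). *Crim1*, a membrane protein that binds BMPs, rose from 7082 ± 1245 to 15782 ± 2228 (log2 fold change 1.16, edgeR, adjusted p = 0.00246). *Htra1* and *Htra3*, which code for secreted serine proteases, fell. *Htra1* gave normalized counts of 5562, 4219 and 5585 (*Pa1* F/F libraries) and of 1401, 1294 and 1040.0 (*Amh-pa1* -/- libraries) (log2 fold change -2.04, edgeR, adjusted p = 0.000257). *Htra3* fell from 269 ± 13.9 to 80.8 ± 26.2 (log2 fold change -1.73, edgeR, adjusted p = 0.00181). Without *Amh-pa1* -/- replicate 3, 5 genes of this list were called lower (21.2% of all tested genes), and 5 were without both libraries that stood apart (27.3%).

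**Figure D4:**
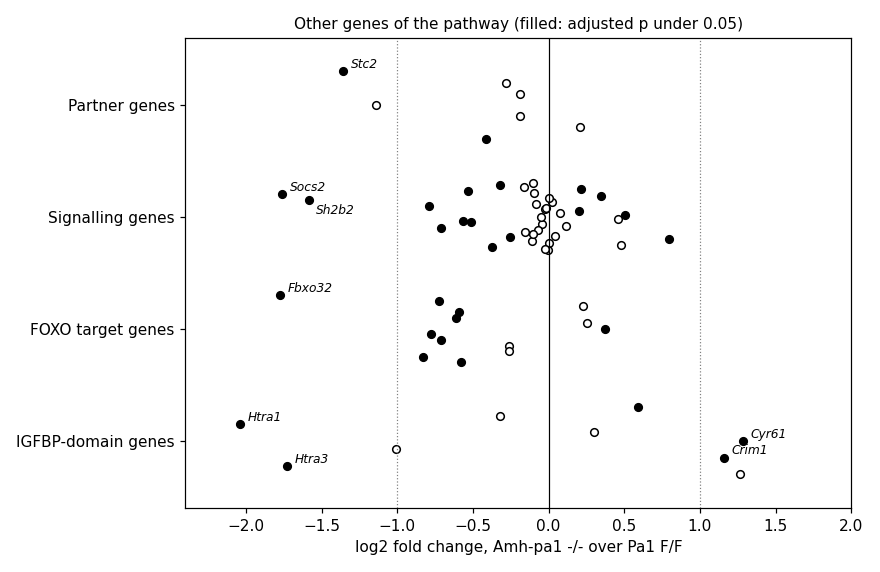
Log2 fold changes of the tested genes of the 4 lists in *Amh-pa1* -/- over *Pa1* F/F cells, 1 point per gene and 1 band per list, with vertical scatter only to separate points. Filled points passed an adjusted p under 0.05 in edgeR, names mark the filled points past the dotted lines at a log2 fold change of 1, and *Insrr*, whose fitted value rests on a control near the floor, is not drawn. In the FOXO target band 8 filled points lie left of 0 and 1 lies right of it.

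Markers of other cell types were summed in the same libraries. Calls are counted for them where they do not rest on genes that passed the filter through 1 genotype alone, beside 17.1% of all tested genes called lower and 18.2% higher. Leydig cell markers (8 genes) summed to between 986 and 1081 CPM in *Pa1* F/F and between 295 and 426 CPM in *Amh-pa1* -/- libraries, with *Star* the most abundant, 4 of 4 tested lower, and *Cyp17a1* and *Insl3* at 3 reads or fewer in every library. Macrophage markers (14 genes) summed to between 126 and 139 CPM and between 76.5 and 93.6 CPM, led by *Mrc1*, which had 984 ± 38.8 and 1109 ± 155 normalized counts (SD, n = 3) and did not pass (log2 fold change 0.17, edgeR, adjusted p = 0.254). Apart from *Mrc1*, the macrophage markers with more than a few reads in both genotypes fell. *Lyz2* went from 456 ± 93.5 to 47.4 ± 33.0 normalized counts (log2 fold change -3.26, edgeR, adjusted p = 0.00217). *Cd68* and *Csf1r* had log2 fold changes of -1.65 and -2.49 (edgeR, adjusted p = 0.00220 and 0.00213). Endothelial markers (7 genes) summed to between 116 and 122 CPM and between 64.1 and 101 CPM, with *Emcn* at 3 reads or fewer. Peritubular myoid markers (6 genes, led by *Acta2*) summed to between 222 and 283 CPM and between 828 and 1268 CPM, but *Acta2* was the only 1 of 5 tested that was higher. *Myh11*, *Des* and *Actg2* were below every *Pa1* F/F library in *Amh-pa1* -/- replicates 1 and 2 and above them all in replicate 3, as with *Myh11* at 649, 481 and 580 normalized counts (*Pa1* F/F libraries) and 216, 164 and 1605 (*Amh-pa1* -/- libraries). Mesothelial markers (7 genes) summed to between 7.18 and 12.5 CPM and between 31.5 and 40.3 CPM. Germ cell markers (12 genes, led by *Uchl1*) summed to between 195 and 224 CPM and between 107 and 201 CPM, with *Stra8*, *Zbtb16* and *Acrv1* at 3 reads or fewer. *Uchl1*, at a mean of 183 CPM over all libraries, made up most of this sum. It did not pass (edgeR, adjusted p = 0.300), nor did *Sycp3* (0.981), while *Gfra1* fell (log2 fold change -1.57, edgeR, adjusted p = 0.00726). *Ddx4* and *Kit* passed the filter through the *Pa1* F/F libraries alone. Fibroblast markers (7 genes) summed to between 3613 and 4497 CPM and between 2182 and 4100 CPM, and 2 of 6 tested were lower. Sertoli cell markers (14 genes, led by *Clu*) summed to between 16843 and 17083 CPM and between 10091 and 12925 CPM. *Amh-pa1* -/- replicate 3, which held the most *Igfbp3* and *Igf1* of all libraries, was the highest of its genotype for the fibroblast, Leydig, myoid, endothelial, mesothelial and Sertoli cell sums, and the lowest for the macrophage and germ cell sums. *Pa1* F/F replicate 2, which held the least *Igfbp3* and *Igf1*, had the highest fibroblast sum of all libraries (4497 CPM). No marker of these lists was at 0 in every library. Their part in the changes of the IGF system was not tested.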

How the data were processed

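RNA of the 6 samples was isolated with Trizol, and the NEBNext Ultra kit gave the libraries. HISAT2 (2.1.0) served the authors for alignment to GRCm38 and HTSeq (0.6.0) for counting reads per gene, and the deposited counts are not normalized. The strand setting is not given in the sources used here. The columns of fold changes, p-values and mean signal in the same table are the authors' own comparison and were not used.

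Genes were filtered with filterByExpr by group (minimum count 10, minimum total 15), scaled by TMM and tested in edgeR 4.0.16 (R 4.3.3) with the quasi-likelihood F-test without covariates, with Benjamini-Hochberg adjustment over 14919 genes. The standard error is the absolute log2 fold change divided by the square root of F. The permutation test of single values was exact and two-sided. CPM per kilobase used the union of exons of GENCODE M39, matched by gene identifier. Log2 CPM values had a prior count of 3. Profiles were compared over genes averaging 50 normalized counts or more. Alternatives were DESeq2 1.42.0, limma-voom (limma 3.58.1), other scalings and filters, the replicate number as a block, the close pairs of replicates summed, and each library left out. The steps were tested on simulated counts. Figures were drawn with matplotlib 3.10.9.

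The members and lists were chosen with earlier results of these data known. Named genes are the members, list genes past an adjusted p of 0.05 and a log2 fold change of 1, *Igf2*, *Igf2r*, *Irs1*, *Irs2*, *Pappa* and *Stc2*, the 3 genes nearest in profile to the most changed member, and markers that lead their list or are at 0. Other genes were named after their values were seen. The motifs were also chosen then.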

Additional observations from a re-analysis of the deposited data

How the results depend on the processing

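The log2 fold changes of *Igfbp2*, *Igfbp4*, *Igfbp5*, *Igfbp6* and *Igfbp7* kept their direction and an adjusted p under 0.05 under all 15 alternatives, and those of *Igf1*, *Igf1r* and *Insr* kept their direction. *Igfbp3* reversed to -0.11 without both libraries that stood apart, a setting chosen after seeing the data.

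The share of all tested genes that was called moved with the setting too, from 35.3% to 8.66% with the close pairs of replicates summed, which leaves 2 libraries per genotype, and to 55.3% without both libraries that stood apart. With the close pairs summed, 1 member was higher, 0 partner genes were lower and 2 higher, 3 signalling genes were lower and 1 higher, and 3 FOXO targets were lower and 0 higher. With glmTreat of edgeR, which tests for a log2 fold change beyond 1, 2 members were lower, *Igfbp4* and *Igfbp5* (adjusted p = 0.00164 and 0.00934), and 0 higher. The share of all tested genes that passed this test is not given here, so these counts stand without a background. Without both libraries that stood apart, 5 partner genes were lower and 3 higher, 2 FOXO targets were higher and 5 IGFBP-domain genes lower. In that setting 27.3% of all tested genes were called lower and 28.0% higher. Partner genes called higher numbered 2 without a filter, 2 with DESeq2 and 0 with at least 10 reads in every library. In these settings 9.91%, 14.7% and 18.3% of all tested genes were called higher. The partner calls rested on *Insrr* and *Igfbpl1*, which have 2 reads or fewer in each *Pa1* F/F library. *Ghr* was added without *Amh-pa1* -/- replicate 3 or both libraries that stood apart. With 1 library left out, members called higher ranged from 1 to 3, and from 0 to 2 with the fold threshold, partner genes from 2 to 4 lower and 1 to 3 higher, signalling genes higher from 3 to 5, FOXO targets lower from 5 to 9 and IGFBP-domain genes lower from 2 to 5. Over the same fits 11.1% to 21.2% of all tested genes were called lower and 11.5% to 21.9% higher. The share past the fold threshold in these fits is not given here. The cause of these changes was not tested.

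Replicate numbers did not pair the libraries (correlations of deviations between same-numbered libraries 0.11, -0.16 and -0.18). With the replicate number as a block, 3 signalling genes were called higher, and 3802 genes in all as compared with 5266. Depth did not limit the members, while *Insrr* and *Igfbpl1* rest on few reads.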
